A study of Mus musculus with 16 samples.

Results

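The inhibin, activin and follistatin system was followed in cultured mouse ovarian follicles through 9 genes chosen by name: the subunit genes Inha, Inhba and Inhbb, the binding protein genes Fst and Fstl3, and the receptor genes Acvr2a, Acvr2b, Acvr1b and Tgfbr3. Of 45101 probe sets on the array, 17 were annotated to these genes alone. After the filter on low signals, 15 of the 17 remained, so that all 9 genes were among the 12172 genes tested.

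Preantral to small antral follicles were dissected from the ovaries of C57BL/6Tac female mice, 6 to 8 weeks old in the series' design text and 8 weeks old in the sample labels. Each experiment pooled follicles from 8 mice. Follicles of that pool were cultured in single drops, either without added hormone (control, 0 ng/ml) or with anti-Müllerian hormone (AMH), a recombinant protein given at 50 ng/ml. Culture lasted 12 or 24 h, and the labels do not say whether arrays of both times came from 1 pool. The medium of all 4 groups also held 80 IU/L FSH and 10 IU/L LH, so that the controls were gonadotropin-treated follicles and no group lacked FSH or LH. Each of the 16 arrays (4 per group) measured 5 ng of total RNA from 6 to 9 follicles, amplified before labelling. AMH and control arrays of 1 experiment formed a pair, giving 4 pairs at each time. Values are log2(signal + 1.46), and a change is a difference on that scale, which understates the change of weak genes.

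Inhibins and activins are dimers of related subunits. The alpha subunit (Inha) joined to a beta subunit (Inhba or Inhbb) makes inhibin, which restrains FSH release from the pituitary, while beta subunits joined to each other make activins. Activin binds a type II receptor (Acvr2a or Acvr2b), which then engages the type I receptor Acvr1b and sends SMAD2 and SMAD3 to the nucleus. Follistatin (Fst) and follistatin-like 3 (Fstl3) bind activin outside the cell and keep it from its receptors, and betaglycan (Tgfbr3) is a co-receptor through which inhibin competes with activin. In growing follicles the granulosa cells, which respond to FSH, are a main source of the subunits and of follistatin.

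The upstream sequences of both beta subunit genes are shown first, since these genes had the highest fitted increases over time with AMH among the 9, and the bases before their starts differ in composition. RefSeq's promoter table (GRCm38.p6) held 7 of the 9 genes. Each window below is the 250 bases before the annotated start, 5′ to 3′ on the strand of the gene, with matches to TATAAA in capitals. The Inhba window is chr13:16011601-16011850 on the + strand, and the Inhbb window is chr1:119422249-119422498 on the - strand.
Inhba: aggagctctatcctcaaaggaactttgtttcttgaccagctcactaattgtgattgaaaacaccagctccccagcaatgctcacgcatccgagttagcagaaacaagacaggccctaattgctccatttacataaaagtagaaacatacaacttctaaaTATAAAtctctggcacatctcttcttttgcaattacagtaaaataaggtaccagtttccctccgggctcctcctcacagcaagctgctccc
Inhbb: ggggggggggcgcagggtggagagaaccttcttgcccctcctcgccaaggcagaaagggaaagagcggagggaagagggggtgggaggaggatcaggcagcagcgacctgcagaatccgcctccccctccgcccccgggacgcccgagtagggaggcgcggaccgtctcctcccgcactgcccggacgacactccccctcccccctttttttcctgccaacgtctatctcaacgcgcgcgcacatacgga
The Inhba window had a GC content of 43.2% and the Inhbb window 68%, against a median of 52.4% over 32851 windows of the same length. TATAAA, sought on both strands, had 1 match in the Inhba window and none in that of Inhbb, and was present in 12.4% of all windows. On both strands, the CRE core TGACG was present in 17.8% of all windows, the AP-1 motif TGANTCA in 6.75%, the nuclear receptor motif AGGTCA in 14% and the SMAD motif CAGAC in 42.2%. None of these 4 motifs was found in either window, which says only that these letters are not in these bases.

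The arrays were scaled to the same mean after 2% trimming at both ends, and arrays of a group correlated with each other at 0.923 to 0.977. Granulosa markers were present: 10 of 11 listed genes were measured and all 10 passed the filter, as did 17 of the 18 oocyte markers measured (of 20 listed). The summed signal of the granulosa markers at 12 h was 3515 to 5021 in controls and 3314 to 5897 with AMH. At 24 h it was 6984 to 9454 in controls and 6978 to 11303 with AMH, so that every 24 h array lay above every 12 h array. The stromal and smooth muscle markers (11 of 13 past the filter) summed to 2151 to 6366 at 12 h and 5804 to 10303 at 24 h, the theca markers (6 of 9) to 5669 to 8008 and 7511 to 14738, and those of the surface epithelium (11 of 11) to 4304 to 7986 and 2720 to 5446. In controls the endothelial markers (12 of 13) summed to 1145 to 3478 at 12 h and 976 to 1389 at 24 h, and the immune markers (10 of 14) to 810 to 1902 and 556 to 941. With AMH the endothelial sums were 944 to 2640 and 1091 to 1859, and the immune sums 697 to 1501 and 577 to 1744. Oocyte marker sums ranged from 2694 to 13287 and overlapped between all 4 groups. In such whole-follicle samples, a change in the number of cells of a type and a change in RNA per cell cannot be told apart.

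Over culture time, the alpha subunit gene Inha rose 2.02-fold in controls and the beta A subunit gene Inhba rose 4.49-fold with AMH. Each was the single member called in its arm, at an adjusted p under 0.05 over all genes (limma, Benjamini-Hochberg). Among all genes, 19.1% were called between 12 and 24 h in controls (9.96% higher and 9.19% lower at 24 h) and 8.28% with AMH (4.34% higher and 3.94% lower), so that 1 of 9 members called is a share near the background in both arms. The fitted changes of the members had a median of 0.22 in controls and 0.72 with AMH, beside -0.01 and -0.02 over all genes. All 9 fitted changes were above 0 in controls and 7 of 9 with AMH, but several signs were not firm. Over 24 alternatives in controls, the sign turned in 7 for Acvr2a, 7 for Acvr2b, 5 for Fstl3 and 4 for Fst. With AMH it turned in 8 for Acvr2a, 7 for Acvr1b and 1 for Acvr2b. Centring each array on its median moved the median of all genes in controls to -0.19. The changes of Fstl3, Acvr2a and Acvr2b in controls were then below 0.

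**Figure D1:**
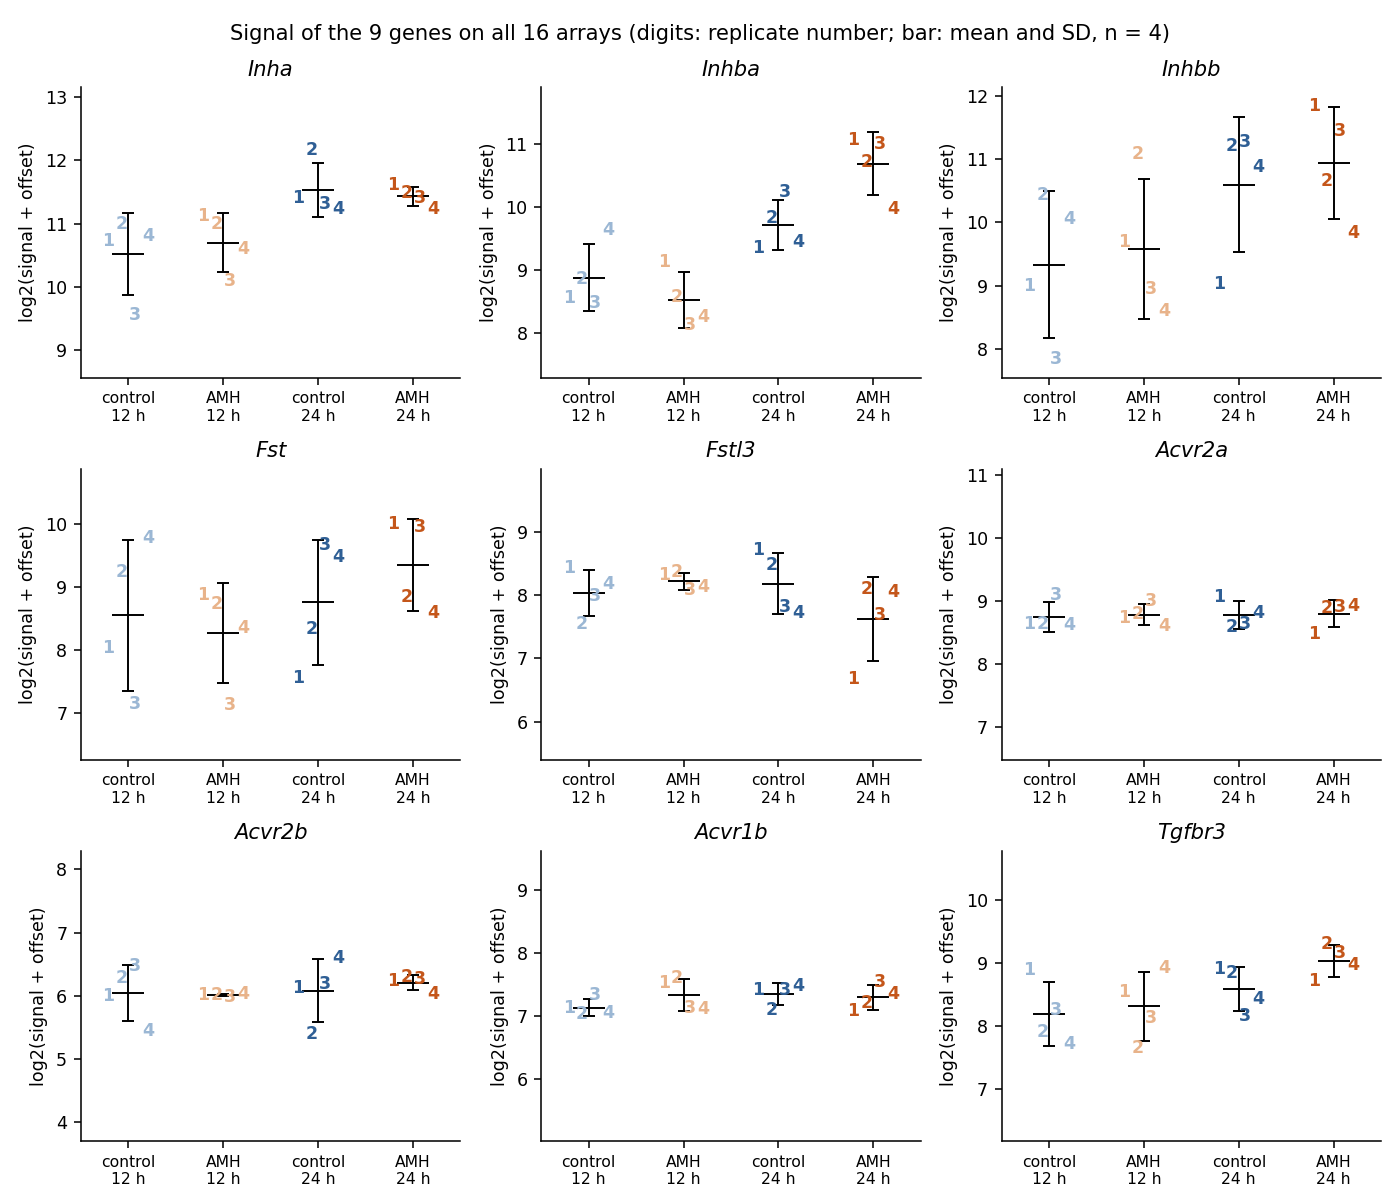
The log2 signal of the 9 genes in each of the 16 arrays, by group (control and AMH at 12 and 24 h), with digits for replicate numbers and bars for the mean and SD (n = 4). Inha in both arms and Inhba with AMH lay higher in all 4 arrays at 24 h than in any at 12 h, while Acvr2a lay between 8.49 and 9.10 throughout.

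Inha had a log2 signal of 10.73, 10.99, 9.55 and 10.81 in the control arrays at 12 h and of 11.40, 12.17, 11.31 and 11.23 at 24 h. With AMH it was 11.12, 10.99, 10.08 and 10.59 at 12 h and 11.61, 11.48, 11.40 and 11.23 at 24 h. In both arms the lowest 24 h array lay above the highest 12 h array, and replicate 3 was the lowest at 12 h in both. The change was 1.01 in controls (SE 0.29, adjusted p = 0.0214 by limma) and 0.73 with AMH (SE 0.29, adjusted p = 0.124), so that the call was made in controls and not with AMH. Among all genes, 11.4% in controls and 7.47% with AMH had every 24 h array above every 12 h array. The call in controls rested on a few arrays: without replicate 3 of control 12 h, the array with the lowest Inha, the change was 0.69 (adjusted p = 0.0570), and without replicate 2 of control 24 h, the highest, it was 0.80 (adjusted p = 0.0691). It was also lost without replicate 1 or 2 in every group (adjusted p = 0.0579 and 0.0648), with each array centred on its median (0.83, adjusted p = 0.0680) and with a fit on the 8 control arrays alone (adjusted p = 0.0521).

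Inhba had a log2 signal of 8.56, 8.86, 8.47 and 9.63 in the 12 h controls and of 9.12, 8.57, 8.13 and 8.25 in the 12 h AMH arrays. At 24 h it was 9.35, 9.82, 10.23 and 9.45 in controls and 11.06, 10.71, 10.99 and 9.97 with AMH. With AMH the 2 times did not overlap, whereas in controls replicate 4 at 12 h lay above replicates 1 and 4 at 24 h. The change was 2.17 with AMH (SE 0.29, adjusted p = 0.000453 by limma) and 0.83 in controls (SE 0.29, adjusted p = 0.0542). Without replicate 4 of control 12 h, the control change was 1.08 and was called (adjusted p = 0.0172). Without replicate 3 in every group it was 0.53 (adjusted p = 0.316), and 2 of the 12 fits with arrays left out called it. With AMH, Inhba was called in all 24 alternatives tried, with changes of 1.33 to 2.40. The lowest of these, 1.33, came from averaging in the second Inhba probe set, whose mean log2 signal of 2.83 was under the filter of 4.18.

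The order of the Inhba group means was AMH at 12 h (8.52 ± 0.44, SD, n = 4), control at 12 h (8.88 ± 0.52), control at 24 h (9.71 ± 0.40) and AMH at 24 h (10.68 ± 0.50). Arrays of neighbouring groups in this order overlapped at each step. For Inha the order was control at 12 h (10.52 ± 0.66), AMH at 12 h (10.70 ± 0.47), AMH at 24 h (11.43 ± 0.16) and control at 24 h (11.53 ± 0.43), with overlap within each time and none between times.

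Inhbb, the beta B subunit gene, varied widely from array to array, with SDs of 0.89 to 1.17 within groups. Its log2 signal at 12 h was 8.99, 10.44, 7.84 and 10.05 in controls and 9.68, 11.08, 8.94 and 8.59 with AMH. At 24 h it was 9.02, 11.21, 11.28 and 10.88 in controls and 11.84, 10.65, 11.44 and 9.82 with AMH. The times overlapped in both arms. The change over time was 1.27 in controls (SE 0.65, adjusted p = 0.182) and 1.36 with AMH (SE 0.65, adjusted p = 0.210), neither of which passed. In controls it was 0.54 without replicate 3 in every group and 1.79 without replicate 1 of control 24 h (adjusted p = 0.671 and 0.0687), and 0.77 without replicate 3 of control 12 h. Its second probe set gave changes of 1.14 and 1.76, with adjusted p values of 0.283 and 0.143. The 95% interval in controls ran from -0.10 to 2.63, which holds both 0 and the change fitted for Inha.

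Granulosa and stromal marker sums were higher in every 24 h array than in any 12 h array of the same arm. Theca sums were higher at 24 h too, without overlap in controls and with overlap under AMH. Surface epithelium sums were lower in every 24 h array with AMH. They ranged lower with overlap in controls, as did endothelial and immune sums. On mean log2 signal, surface epithelium ranges overlapped in controls (7.19 to 8.70 and 7.18 to 8.10). They did so with AMH (7.01 to 8.25 and 7.16 to 7.80), as did stromal ranges in controls (6.18 to 7.70 and 7.17 to 7.84). The part of these lists in the changes of the subunit genes was not tested. With the mean log2 signal of the oocyte markers as a covariate, chosen after seeing the data, the change of Inha in controls was 0.93 (adjusted p = 0.0149) and that of Inhba with AMH was 2.11 (adjusted p = 0.000249). Oocyte sums overlapped between the groups, and this covariate holds no values of the other lists, so the fit says nothing of their part.

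Of the binding proteins, neither changed past the threshold over time. Fst had log2 signals of 8.03, 9.24, 7.14 and 9.77 in controls at 12 h and 7.56, 8.33, 9.66 and 9.48 at 24 h. With AMH it was 8.87, 8.72, 7.13 and 8.35 at 12 h and 10.00, 8.84, 9.95 and 8.59 at 24 h. The times overlapped in both arms. The change was 0.21 in controls (SE 0.57, adjusted p = 0.834) and 1.08 with AMH (SE 0.57, adjusted p = 0.272). The second Fst probe set gave 0.43 and 0.85. Fstl3 had group means of 8.03 ± 0.37 and 8.18 ± 0.49 in controls at 12 and 24 h, and of 8.22 ± 0.14 and 7.63 ± 0.66 with AMH. Its change was 0.15 in controls (adjusted p = 0.752) and -0.60 with AMH (SE 0.29, adjusted p = 0.218). The lowest of the 16 Fstl3 values, 6.67, was replicate 1 of AMH at 24 h.

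The receptor genes Acvr2a, Acvr2b and Acvr1b differed little over time. Acvr2a, a type II receptor for activin, lay between 8.49 and 9.10 in all 16 arrays, and its change over time was 0.03 in controls (95% interval -0.28 to 0.34) and 0.02 with AMH (-0.29 to 0.32). A change of 2-fold lies outside both intervals. Acvr2b, the other type II receptor, lay between 5.40 and 6.60, with changes of 0.03 in controls and 0.20 with AMH (adjusted p = 0.944 and 0.681). With AMH its 4 arrays at 24 h, at 6.04 to 6.29, lay just above those at 12 h, at 5.98 to 6.03. Among all genes, 7.47% had every 24 h array above every 12 h array with AMH. The other probe sets of Acvr2b had changes of -0.11 and -0.30 with AMH. Acvr1b, the type I receptor, lay between 7.04 and 7.60, with changes of 0.22 and -0.04 (adjusted p = 0.345 and 0.910).

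Tgfbr3, the inhibin co-receptor, was the receptor gene with the largest fitted change. Its log2 signal with AMH was 8.54, 7.66, 8.13 and 8.92 at 12 h and 8.71, 9.29, 9.16 and 8.96 at 24 h, overlapping through replicates 1 and 4. The change was 0.72 with AMH (SE 0.27, adjusted p = 0.111) and 0.39 in controls (SE 0.27, adjusted p = 0.338), and neither passed. The second Tgfbr3 probe set gave 0.57 and 0.31.

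**Figure D2:**
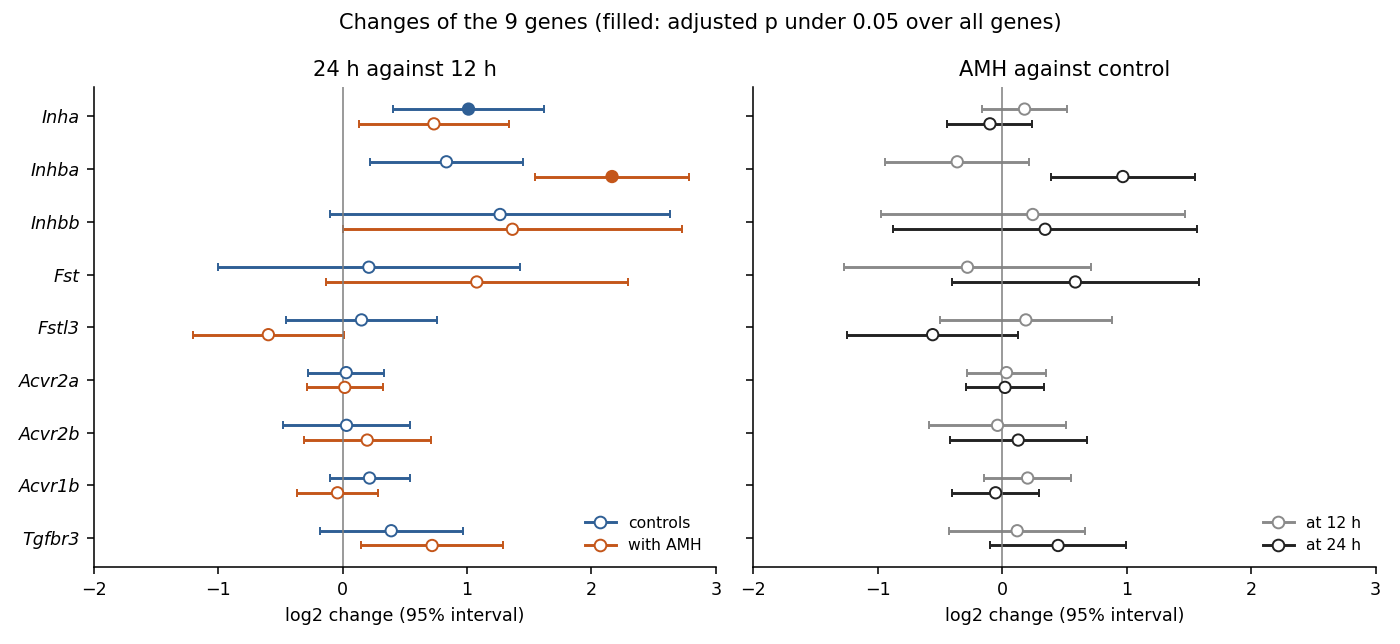
Log2 changes of the 9 genes with 95% intervals from limma, 24 h against 12 h (left, controls and AMH) and AMH against control (right, at 12 and 24 h). Filled points passed an adjusted p of 0.05 over all genes: Inha in controls at 1.01 and Inhba with AMH at 2.17, and none for AMH against control.

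AMH against control within pairs changed none of the 9 genes past the threshold at 12 h, at 24 h, on the mean of both times or as a difference between times. Among all genes, 0 were called at 12 h and 2 at 24 h (0.0164%), and 0 in both other comparisons (limma, 12172 genes), while 788, 496, 585 and 687 genes had an unadjusted p under 0.05. Of the members, 0, 1, 0 and 1 had an unadjusted p under 0.05, and Inhba was that gene at 24 h and for the difference. The medians of the members at 12 and 24 h were 0.12 and 0.13, against 0.01 and 0.01 over all genes. At 12 h the pairs of Inhba differed by 0.56, -0.29, -0.34 and -1.38, and the change was -0.36 (SE 0.26, adjusted p = 0.865).

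At 24 h Inhba was higher with AMH in 4 of 4 pairs, by 1.70, 0.89, 0.77 and 0.52. The change was 0.97 (SE 0.26, 1.96-fold, unadjusted p = 0.00363 and adjusted p = 0.813 by limma). Among all genes, 5.95% were higher with AMH in all 4 pairs at 24 h. The adjusted p over the 16 alternatives ran from 0.186 to 1, with changes of 0.52 to 1.12. The AMH effect on Inhba at 24 h minus that at 12 h was 1.33 (SE 0.37, unadjusted p = 0.00437, adjusted p = 0.533), so that the larger rise of Inhba over time with AMH than in controls did not pass a test of the difference. The comparison of AMH with control at 24 h and that of both times with AMH share the 4 arrays of AMH at 24 h, and are not independent.

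Pair 1 at 24 h stood apart from the other pairs in several members. In it Inhbb was higher with AMH by 2.82, Fst was higher by 2.44 and Fstl3 differed by -2.05, against -1.06 to 0.16, -0.89 to 0.51 and -0.37 to 0.32 in the other 3 pairs. Over the 4 pairs the changes were 0.34 for Inhbb, 0.59 for Fst and -0.56 for Fstl3, none past the threshold. Without replicate 1 they were -0.48, -0.03 and -0.06, while that of Inhba was 0.73 (adjusted p = 0.473). In the arrays of pair 1 the granulosa marker sum was 11303 with AMH and 6984 in the control, and the oocyte marker sum was 9638 and 4715. The stromal sum was 9341 with AMH and 6115 in the control, and the endothelial sum 1091 and 976. Lower with AMH were the theca sum (7511 and 12349), the immune sum (577 and 797) and the surface epithelium sum (2720 and 2997). The part of these differences in the result was not tested. The difference between the AMH effects at both times was 0.87 for Fst and -0.75 for Fstl3, with adjusted p values of 0.941 and 0.914.

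No other change between AMH and control passed the threshold, and several were measured with wide intervals. Inha had changes of 0.18 at 12 h and -0.10 at 24 h, with 95% intervals of -0.16 to 0.52 and -0.44 to 0.24. Inhbb and Fst had changes of 0.25 and -0.28 at 12 h, with intervals of -0.98 to 1.47 and -1.27 to 0.72. For Inhbb a 2-fold rise lies inside the interval and a 2-fold fall just outside it. For Fst a 2-fold fall lies inside the interval and a 2-fold rise outside it. At 12 h, the fitted differences were 0.19 for Fstl3, 0.03 for Acvr2a, -0.04 for Acvr2b, 0.20 for Acvr1b and 0.12 for Tgfbr3. At 24 h Acvr2a had 0.02, Acvr2b 0.13, Acvr1b -0.05 and Tgfbr3 0.45 (95% interval -0.10 to 1.00). Adjusted p values of all 9 members lay between 0.865 and 0.993 at 12 h, and between 0.813 and 1.000 at 24 h.

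**Figure D3:**
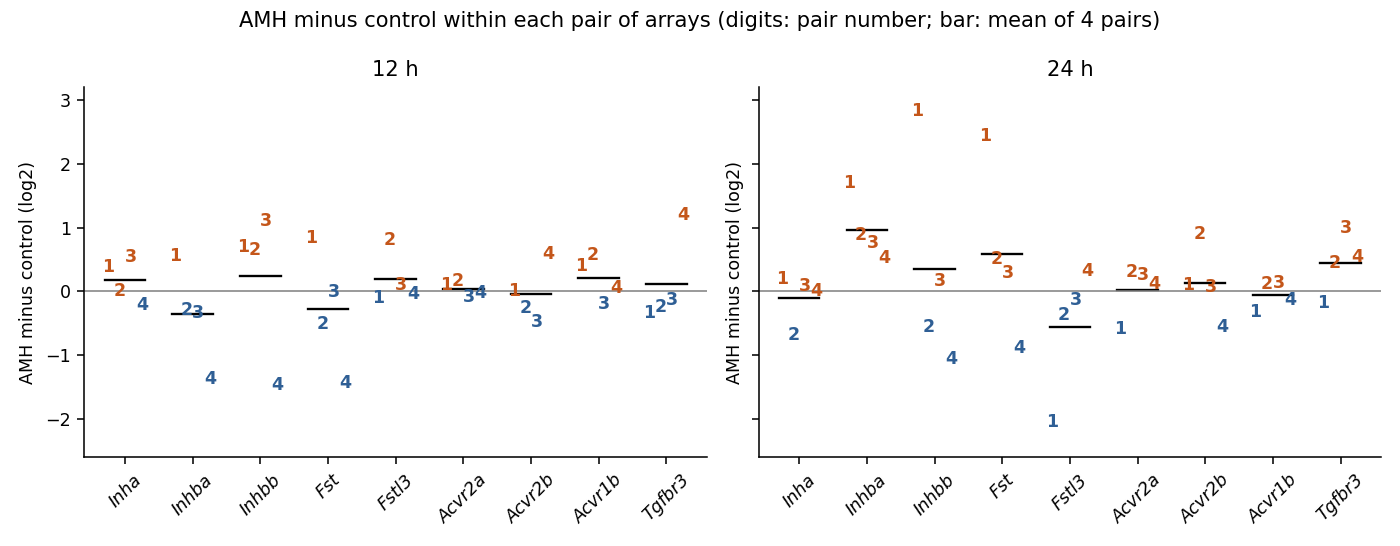
AMH minus control, log2, in each pair of arrays (digits are pair numbers) for the 9 genes at 12 h (left) and 24 h (right), with bars for the mean of 4 pairs. At 24 h all 4 pairs of Inhba lie above 0, between 0.52 and 1.70, and pair 1 lies far from the other pairs for Inhbb, Fst and Fstl3.

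Since subunits pair with each other and follistatin binds activin, unequal change of genes was asked for within each array, where scaling cancels. The difference of 2 genes in an array says nothing of the ratio of their levels, and only its change over time is given. With AMH, Inhba gained 1.43 on Inha and 1.09 on Fst between 12 and 24 h, and in both the 4 arrays at 24 h lay above the 4 at 12 h. The exact two-sided permutation p was 0.0286 for each, the smallest that 4 against 4 arrays allow, and 0.114 after adjustment over the 8 tests. With this floor, neither could have passed the threshold unless further tests had also reached the floor. In controls the same differences moved by -0.18 (p = 0.743, exact permutation) and 0.62 (p = 0.257, exact permutation), with overlapping times. Inhba minus Inhbb moved by -0.43 in controls and 0.80 with AMH, and Inhbb minus Inha by 0.25 and 0.63, none past the threshold (adjusted p = 0.457 to 0.743, exact permutation). These shifts depended on the choice of the Inhba probe set: with all probe sets of a gene averaged, that under the filter included, those with AMH were 0.60 for Inhba minus Inha, 0.37 for Inhba minus Fst and -0.23 for Inhba minus Inhbb (adjusted p = 0.8 for each, exact permutation).

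**Figure D4:**
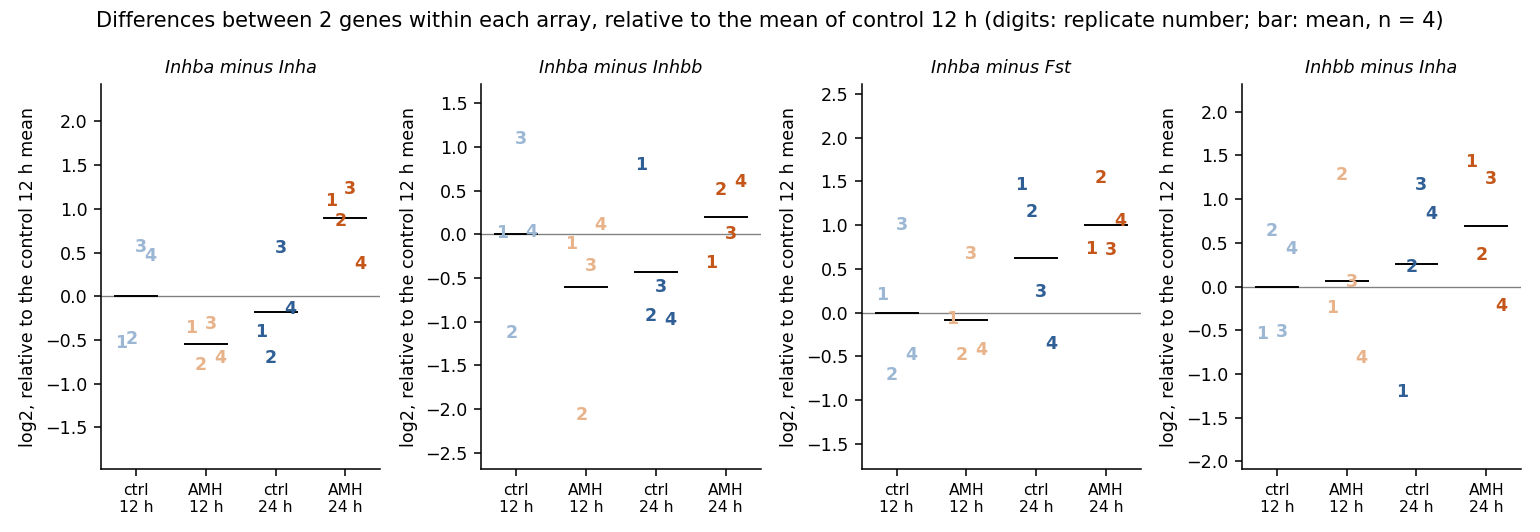
Log2 differences between 2 genes within each array, shown relative to the mean of the control arrays at 12 h, for 4 gene pairs and 4 groups (digits are replicate numbers, bars are means, n = 4). Inhba minus Inha lies higher in all 4 arrays of AMH at 24 h than in AMH at 12 h, a shift of 1.43, while the control arrays overlap with a shift of -0.18.

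Within groups, the co-variation of members from array to array was examined. Over the 16 arrays, with the group means taken out, Fst correlated with Inhba at Pearson's r = 0.765 and Spearman's rho = 0.785, and with Inhbb at r = 0.803 and rho = 0.785 (36 pairs of members computed). The adjusted permutation p was 0.0513 for both by Pearson, and 0.0230 and 0.0407 by Spearman, with arrays permuted freely within groups. That ignores that both arrays of a pair came from 1 pool. With whole pairs permuted within each time, a test added after seeing the data, the exact permutation p was 0.00347 for Inhba with Fst by both measures, and 0.00694 (Pearson) and 0.00868 (Spearman) for Inhbb with Fst, with adjusted p values of 0.104 by Pearson and 0.0938 by Spearman for both. The smallest p of that test is 0.00174, and 0 of the 36 pairs of genes passed it. With this floor, no pair of genes could have passed unless others had also come near the floor. The test therefore cannot decide on a single pair. Without the 2 arrays farthest from the median in Inhba, its r with Fst was 0.709. Without the 2 farthest in Inhbb, the r of Inhbb with Fst was 0.686. No array was left out by its Fst value. Within 12 and 24 h arrays alone, r was 0.832 and 0.684 for Inhba with Fst, and 0.774 and 0.842 for Inhbb with Fst. All values of an array share its RNA and its scaling, and the part of follicle makeup in these relations was not tested.

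The genes most like each subunit gene and Fst were taken as the 3 with the highest Pearson correlation of log2 signal over the 16 arrays, out of 12171 other genes. For Inha these were Etfdh (0.955), Anapc13 (0.942) and Greb1 (0.942). For Inhba they were Fshr, the FSH receptor (0.904), Sncaip (0.900) and Erlec1 (0.892), and for Inhbb Pomt1 (0.949), Mycn (0.910) and Hsd17b1 (0.908), an enzyme of estradiol synthesis. For Fst they were Masp1 (0.886), Tox2 (0.884) and Osbpl6 (0.867). With group means taken out, the correlations with Inhba were 0.791 for Fshr, 0.650 for Sncaip and 0.661 for Erlec1, and those of the other 9 genes named lay between 0.869 and 0.934. Fshr and Hsd17b1 are also in the granulosa marker list. Fshr was weak, with a mean log2 signal of 5.27 and values from 2.56 to 8.12, the lowest under the filter level of 4.18. As the highest of many, these values are descriptions.

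Around the 9 genes, 7 lists held 55 genes of the pathway, of which 43 were measured above the filter. In controls, 5 of the 43 were called higher and 4 lower at 24 h, a share near that of all genes. With AMH, 3 of the 43 were higher and 2 lower, where 4.34% of all genes were called higher and 3.94% lower. In the AMH comparisons 0 of 43 were called, beside 0.0164% of all genes at 24 h and 0 in the others. The median change over time was -0.05 in controls and -0.01 with AMH, beside -0.01 and -0.02 over all genes.

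Among the regulators of inhibin subunit transcription (12 of 12 measured), 4 rose and 2 fell in controls, where 19.1% of all genes were called. The 3 with the smallest p were Foxl2, a granulosa transcription factor (1.10, adjusted p = 0.000100), Crem, a cAMP-responsive factor (-1.49, adjusted p = 0.000768), and Egr1, an immediate-early factor (-1.01, adjusted p = 0.00314). Esr2, the estrogen receptor of granulosa cells (1.51, adjusted p = 0.0134), Nr5a2 (1.07, adjusted p = 0.0188) and Gata6 (0.55, adjusted p = 0.0326) also rose. The call was kept in 23 of 24 alternatives for Esr2 and for Crem, in 19 for Nr5a2 and in 14 for Gata6, and was lost with centring on the array median for Nr5a2 (adjusted p = 0.0523) and Gata6 (0.37, adjusted p = 0.210). The call of Esr2 was lost without replicate 4 in every group (adjusted p = 0.0778), and that of Nr5a2 also without replicate 2 or 4 in every group, without replicate 3 of control 12 h and without replicate 2 of control 24 h (adjusted p = 0.0509 to 0.101). For Gata6 it was lost in 9 of the 12 fits with arrays left out (adjusted p = 0.0538 to 0.159). Averaging the probe sets of Crem gave -0.64 (adjusted p = 0.0613). With AMH, where 8.28% of all genes were called, Foxl2 (1.04) and Esr2 (1.89) rose and Egr1 fell (-0.69, adjusted p = 0.0475, called in 7 of 24 alternatives). Foxl2, Esr2 and Nr5a2 are also in the granulosa marker list.

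Among the other lists, Bmpr2, a type II receptor for BMPs, rose by 0.70 in controls and 0.66 with AMH, and with centring neither passed (adjusted p = 0.0532 and 0.0539). With AMH its call was also lost without replicate 2, 3 or 4 in every group (adjusted p = 0.0699, 0.0680 and 0.112). Furin, a protease that cuts precursors of this ligand family, fell by 0.51 in controls and by 0.33 with AMH (adjusted p = 0.0432 with AMH, called in 10 of 24 alternatives). Pmepa1, a brake on SMAD2 and SMAD3, fell by 0.84 in controls. With AMH its change was -0.26 and was not called (adjusted p = 0.319 by limma). No gene of the lists of SMADs and partners (6 of 7 measured), other ligands (1 of 8) and other binding proteins (4 of 6) was called in either arm. Of the genes not tested, Inhbc and Inhbe, which encode the beta C and beta E subunits, had probe sets under the filter.

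Smad2 and Smad3, which carry the activin signal, Smad4, their partner, and Smad7, an inhibitor induced by the pathway, passed no test. At 12 h Smad2 was 8.96 ± 0.06 in controls and 8.65 ± 0.05 with AMH, lower in 4 of 4 pairs, as were 7.71% of all genes (change -0.32, SE 0.10, adjusted p = 0.626), and 8.78 ± 0.08 and 8.76 ± 0.14 at 24 h. At 24 h Smad7 was 7.66 ± 1.30 in controls and 8.59 ± 0.43 with AMH, higher in 3 of 4 pairs (change 0.93, SE 0.33, adjusted p = 0.967). Its lowest value was 5.73, in a control array at 24 h. Smad4 had group means between 9.83 and 9.95, and Smad3 between 9.77 and 10.16.

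**Figure D5:**
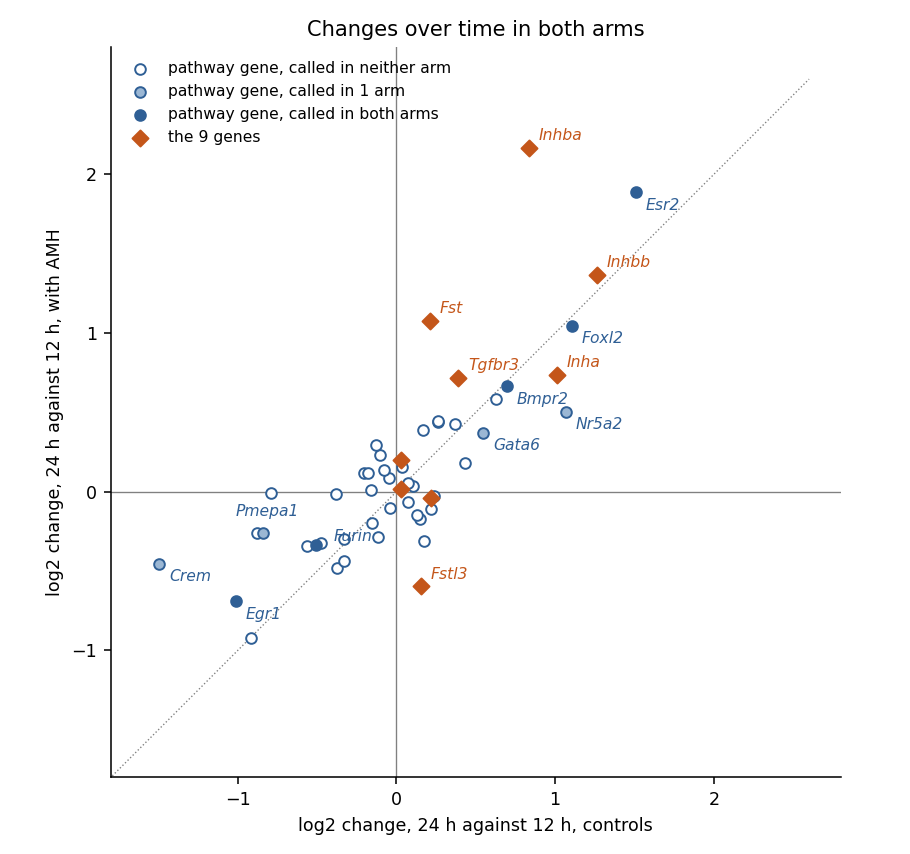
Log2 change from 12 to 24 h in controls (horizontal) against that with AMH (vertical) for the 9 genes (diamonds) and 43 pathway genes (circles, filled by the number of arms in which they were called), with a dotted line of equal change. Inhba lies at 0.83 and 2.17 and Fst at 0.21 and 1.08, above the line, and Foxl2, Esr2 and Bmpr2, which rose, and Furin and Egr1, which fell, were called in both arms.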

How the data were processed

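The authors' deposited values are Affymetrix signals, linear intensity values for which the submitters' processing notes name MAS5, with no version (its settings were not given in the sources used here). All arrays had the same trimmed mean. All 16 columns of values were used. After 64 control probe sets were dropped, log2(signal + 1.46) was taken, with the 10th percentile of all values as the offset, and probe sets with a mean under the 40th percentile (log2 of 4.18) were left out. Of 45101 probe sets, 34945 had 1 symbol, 932 several and 9160 none. Each gene was represented by its probe set of highest mean.

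limma 3.58.1 (R 4.3.3; lmFit, eBayes with trend) was fitted on 12172 genes, with Benjamini-Hochberg adjustment and a threshold of 0.05. It was tested on simulated data. AMH comparisons had the 8 pairs of arrays as a block, since both arms came from 1 pool of follicles per the labels' protocols. The pairs' deviations from group means had correlations of 0.214 to 0.560 for the 12 h pairs and of -0.437, 0.327, 0.200 and -0.287 for the 24 h pairs. Times were compared without a block. Pools are the replicates, and nothing in the labels separates culture from array error. The number of arrays limits the precision. Within-array differences and correlations between members used permutations (exact, or 100000 resamples within groups, with whole pairs permuted as an added alternative). Alternatives were other offsets, filters, scalings, probe set rules, array weights, other blocks, subsets of arrays, and each replicate left out.

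The members and lists were chosen with earlier results of these data known. The rule for named genes took all members, 4 Smad genes, up to 3 called genes per list and comparison with the smallest p, and the 3 most correlated genes for each of Inha, Inhba, Inhbb and Fst. Nr5a2, Esr2 and Gata6 in controls fell outside it and were named after their values were seen.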

Additional observations from a re-analysis of the deposited data

Results flagged for a closer look

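In 36 groups of 4 arrays, 1 for each member and group, 2 had an array far from the others by Dixon's criterion, which chance meets in about 1 of 20 groups. Acvr2a was highest in replicate 3 of control 12 h, at a log2 signal of 9.10 against 8.64 in the nearest array. Acvr2a was lowest in replicate 1 of AMH 24 h, at 8.49 against 8.89 in the nearest array.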

How the results depend on the processing

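No member was called in the AMH comparisons under any alternative run. The count of members called over time in controls (1) was 0 with centring on the median, 0 with only the arrays compared and 3 with array weights, where Inha, Inhba and Inhbb passed, and leaving out replicates gave 0 to 2. The count with AMH (1) was 2, with Inha added, under quantile normalization, array weights and the replicate number as a block across times. Numbers are shared across times without a stated link (correlations of deviations -0.409 to 0.247). Without the block of pairs, 0 members were called in the AMH comparisons (Inhba at 24 h 0.97, adjusted p = 1.00), and the 2 genes called at 24 h over all genes fell to 0. Calls over all genes were 1864 to 3945 in controls and 564 to 1857 with AMH, and 1185 to 2189 and 344 to 948 with arrays left out. Centring lowered the share of higher genes among those called in controls from 52.0% to 24.6%, and moved the median of all genes to 0.12 at 24 h for AMH and 0.15 for the difference of AMH effects. For the pathway lists, 2 to 8 genes were higher and 4 to 7 lower in controls, and 1 to 4 and 0 to 2 with AMH.

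Some changes turned sign, none of them called in the first place. With centring, AMH against control was -0.0017 for Acvr2a at 12 h, 0.017 for Inha and 0.063 for Acvr1b at 24 h. Over time it gave -0.028 for Fstl3, -0.15 for Acvr2a and -0.15 for Acvr2b in controls, and -0.011 for Acvr2a with AMH. Averaging probe sets gave 0.028 for Inhba and 0.043 for Acvr2b (AMH at 12 h), -0.13 for Acvr2b (AMH at 24 h), -0.072 for Acvr2b and 0.14 for Acvr1b (time, AMH), and -0.23 for Inhba minus Inhbb with AMH, from 0.80. Array weights gave 0.064 for Acvr1b (AMH at 24 h), -0.052 for Fstl3 (time, controls) and 0.040 for Acvr1b (time, AMH). Quantile normalization gave -0.0016 for Acvr2a (AMH at 24 h) and -0.092 for Acvr2b (time, controls), and the oocyte covariate 0.019 for Acvr2b (AMH at 12 h). The cause was not tested.

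With replicates left out, AMH changes at 12 h ran from -0.0064 to 0.077 for Acvr2a, -0.25 to 0.11 for Acvr2b, -0.65 to 0.10 for Fst, -0.018 to 0.29 for Fstl3, -0.042 to 0.81 for Inhbb and -0.24 to 0.28 for Tgfbr3. At 24 h they ran from -0.12 to 0.039 for Acvr1b, -0.073 to 0.22 for Acvr2a, -0.13 to 0.36 for Acvr2b, -0.030 to 1.08 for Fst, -0.20 to 0.098 for Inha and -0.48 to 0.81 for Inhbb. Over time in controls they ran from -0.11 to 0.19 for Acvr2a, -0.34 to 0.33 for Acvr2b, -0.56 to 0.62 for Fst, -0.11 to 0.35 for Fstl3 and -0.22 to 0.56 for Inhbb minus Inha. With AMH they ran from -0.19 to 0.090 for Acvr1b and -0.082 to 0.12 for Acvr2a. Within-array tests on 3 against 3 arrays cannot go below p = 0.1 (exact permutation).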
